A study of Mus musculus with 9 samples.

Results

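The clustered protocadherin genes of the mouse hippocampus were examined by bulk RNA sequencing. They were taken as the protein-coding genes with a deposited expression value whose names begin with Pcdha, Pcdhb, Pcdhga, Pcdhgb or Pcdhgc followed by a number or a C-type name. This gave 56 genes of the 33175 with such a value, 14 in the alpha cluster, 22 in the beta cluster and 20 in the gamma cluster. All 56 lie on the forward strand of chromosome 18 of the mm10 build, from base 36930184, where Pcdha1 starts, to base 37841873, where the last gamma genes end.

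Hippocampal RNA came from female mice aged 9 months, with 3 libraries in each of 3 groups. The first group was 3xTg mice that received LP-10d orally for 1 month, 4 times per week at 10 mg/kg. The second was 3xTg mice given vehicle, and the third was C57BL/6J wild-type (WT) mice given vehicle. The 3xTg line is a model of Alzheimer disease, and the series title speaks of modulating 3 kinase targets. The genotype labels of the 3xTg libraries name APPSwe, a Swedish-mutant APP, and tauP301L, a mutant tau. As background, the APP and tau transgenes of this line are driven by the Thy1 promoter, which is active in neurons. The labels name no strain background for the 3xTg mice, so strain and transgenes cannot be told apart in a comparison with C57BL/6J. They also do not say that the libraries came from separate animals, so p-values measure the spread between these libraries.

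Clustered protocadherins are cadherin-like adhesion proteins at the surface of neurons that bind the same isoform on a facing membrane. Each alpha and gamma gene has its own promoter and a large variable exon for the extracellular, transmembrane and first cytoplasmic part, which is spliced to constant exons shared by the whole cluster. Beta genes consist of a single coding exon and have no constant part. A neuron switches on a small, partly random set of promoters, through contacts between CTCF-bound promoters and distant enhancers, while the C-type genes at the ends of the alpha and gamma clusters are used more uniformly. The resulting surface code lets branches of the same neuron recognise and avoid each other. In bulk tissue each value is an average over many cells, so the choice made by a single neuron was not measured, and fewer cells of a type and less RNA per cell cannot be told apart.

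Because constant exons belong to every gene of a cluster, the exons were first compared with GENCODE M21, whose positions and exon lengths match those deposited for all 56 genes. Alpha genes shared 2860 to 5274 exon bases with other genes on the same strand, which left 8.6% to 61.1% of their length unshared (median 46.5%). Gamma genes shared 2116 to 3157 bases, which left 33.2% to 68.5% unshared (median 56%). In the beta cluster 20 of 22 genes shared none, and Pcdhb21 and Pcdhb22 shared 455 bases with each other.

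Genes with no exon base of their own had almost no deposited counts. Among all genes whose exons were wholly covered by others on the same strand, 1 of 764 had any count (0.131%), against 33072 of 54005 genes with at least 1 free base (61.2%). Where the cover lay partly on the other strand only, 3 of 461 genes had a count (0.651%), so antisense genes removed bases as well. Pcdhga10 is an example within the locus. It has 2613 bases not shared on its own strand, all of them covered by exons on the other strand, and its count was 0 in all 9 libraries. Alpha and gamma values are therefore read here as counts over the exon bases that belong to 1 gene alone, and the shared constant exons as largely uncounted.

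**Figure D1:**
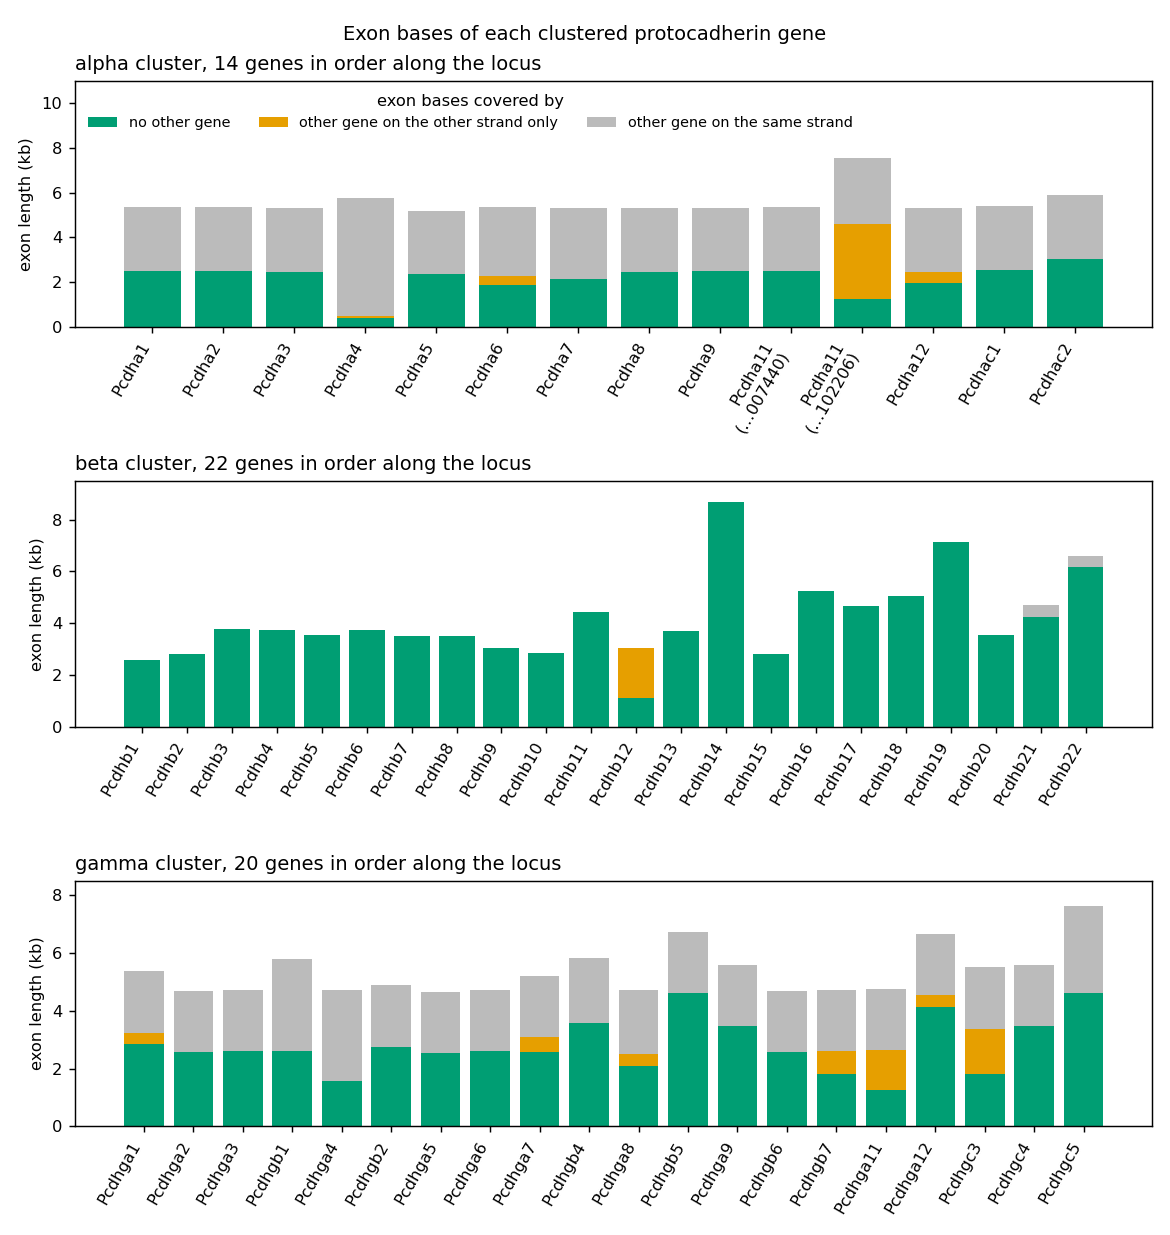
Exon length in kilobases for each of the 56 genes in order along the locus, divided into bases covered by no other gene, bases covered only by a gene on the other strand and bases covered by a gene on the same strand. Nearly all beta exon bases are free, alpha and gamma genes share at least 2116 bases each, and antisense genes cover part of Pcdhb12, Pcdhga11 and Pcdhgc3.

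To compare genes with each other, levels were expressed as CPM (counts scaled to library size) per kilobase of free exon bases. FPKM, the deposited unit, divides by the whole exon length and so lowers alpha and gamma genes relative to beta genes. On the free-base scale 3 of the 5 C-type genes led. Pcdhgc5 (ENSMUSG00000102543, bases 37819513 to 37841873), the last gamma gene, averaged 28.2 CPM per kilobase (lowest 23.9, highest 33.3) over the 9 libraries. Pcdhgc3, known for promoting dendrite branching in mouse cortical neurons, averaged 15.1 CPM per kilobase (lowest 12.3, highest 20.1). Pcdhac2, the alpha isoform that serotonergic axons need for even spacing in mice, averaged 12.3 CPM per kilobase (lowest 9.55, highest 14.7). The range of Pcdhgc5 did not overlap those of the other genes, whereas the ranges of Pcdhgc3 and Pcdhac2 overlapped each other.

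The other C-type genes did not stand apart on this scale. Pcdhgc4, which mouse cortical interneurons require for survival, averaged 4.08 CPM per kilobase (lowest 3.47, highest 4.64), close to the gamma A median of 4.08. Pcdhac1 averaged 1.26 CPM per kilobase (lowest 0.976, highest 1.59), close to the alpha median. Pcdhgc5 alone supplied 39.1% ± 1.83 of all gamma counts and Pcdhac2 49.8% ± 3.13 of all alpha counts (SD, n = 9). The 5 C-type genes together held 37.8% ± 1.21 of the counts of the 56 genes. These shares are of counts and are not divided by free bases. Pcdhgc5 has 4606 free bases and Pcdhac2 3028, more than most genes of their clusters.

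Among the genes that are not C-type, gamma genes had higher median levels than alpha or beta genes. The median level was 4.08 CPM per kilobase over 11 gamma A genes and 2.91 over 6 gamma B genes, against 1.36 over 10 tested alpha genes and 1.40 over 21 tested beta genes. Pcdhga11, with few free bases, at 8.85, Pcdhga3 at 6.14, Pcdhb9 at 6.13 and Pcdhgb6 at 6.12 CPM per kilobase led the genes that are not C-type. Pcdhga2 at 5.14 CPM per kilobase followed. Among alpha genes Pcdha12 stood highest at 4.28 CPM per kilobase (lowest 2.37, highest 5.37), followed by Pcdha9 at 1.74, Pcdha3 at 1.70 and Pcdha5 at 1.60 CPM per kilobase. In the beta cluster Pcdhb9 was followed by Pcdhb17 at 3.69, Pcdhb20 at 3.64 and Pcdhb7 at 2.97 CPM per kilobase. The order depends on the denominator. In FPKM, Pcdhgc5 at 17.0 was followed by Pcdhac2 at 6.30, Pcdhb9 at 6.12 and Pcdhgc3 at 4.98.

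**Figure D2:**
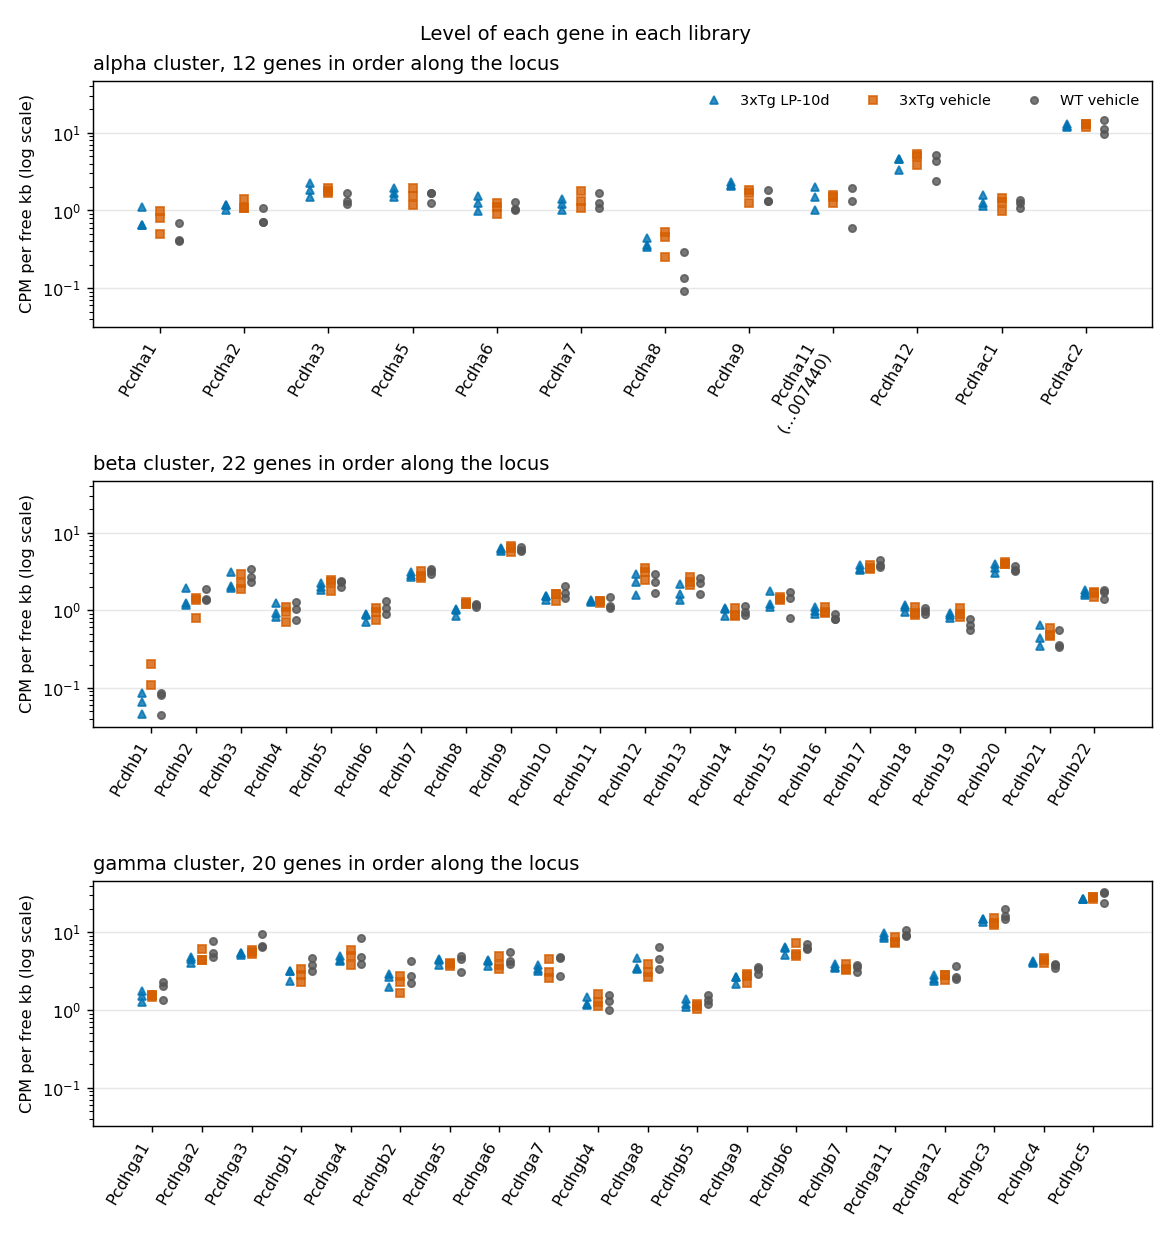
Level of each gene in each library in CPM per kilobase of free exon bases, on a log axis, with genes in order along the locus and 1 point per library. Pcdhgc5 lies above all other genes at 23.9 to 33.3, Pcdha8 and Pcdhb1 lie lowest among the genes drawn, and a Pcdhb1 value of 0 and the 2 genes with a total count of 4 are not drawn.

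A few genes had almost no counts. Pcdha4 had a total count of 4 over all 9 libraries on 404 free bases, and never more than 1 in a library. Other genes on its strand cover 5274 of its 5768 exon bases, and on the free ones it averaged 0.0622 CPM per kilobase. A pair of entries carries the name Pcdha11, and the second (ENSMUSG00000102206) also had a total of 4, on 1268 free bases. Antisense exons cover 3338 more of its bases, and on the free ones it averaged 0.0193 CPM per kilobase. Whether either gene is silent was not tested. RefSeq places its Pcdha11 start at this second entry and Pcdha10 at the first (ENSMUSG00000007440), so the first, with 27 to 90 counts per library, may be listed under another gene's name. Pcdhb1 had 0 to 10 counts per library on 2588 free bases. These 3 low genes did not pass the filter on low counts, so 53 of the 56 were tested. Among the tested genes Pcdha8 was lowest at 0.323 CPM per kilobase (lowest 0.0922, highest 0.527), and the ratio of Pcdhgc5 to Pcdha8 was 87.2.

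Libraries held 16582086 to 19170969 counts, of which the 56 genes took 0.0523% to 0.0604%. Across the 9 libraries the coefficient of variation of a tested gene had a median of 16.2%, against a median of 8.77% that counting error alone would give at these depths. For 20 of 53 genes it was within 1.5 times the counting value. Pcdhb9 was the steadiest, at 6.45%, and Pcdha8, with 4 to 23 counts per library, the most variable at 45.2%.

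Cell type markers set some libraries apart before any comparison. Markers of neurons in general (8 of 8 found) summed to 5757 to 6243.5 CPM in LP-10d libraries, 5638.5 to 6208.5 CPM in 3xTg vehicle libraries and 5179 to 6835 CPM in WT vehicle libraries. Hippocampal neuron markers (10 of 10) ran from 974 to 991 CPM, 713 to 1053 CPM and 1006 to 1210.3 CPM in the same 3 groups, so the labelled tissue expressed them throughout. Choroid plexus markers (12 of 12) ranged from 194 to 3946 CPM, 192 to 1531 CPM and 230 to 6277 CPM. Striatum and thalamus markers (11 of 11) reached 1366.5 CPM in 3xTg vehicle replicate 2 and 169 to 382 CPM in the other libraries. In the other 8 lists the highest library was 1.12 to 2.26 times the lowest.

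Several lists separated the groups. Oligodendrocyte markers summed to 5153 to 6529 CPM in 3xTg vehicle libraries and 7203 to 7715 CPM in WT vehicle libraries, and precursor markers to 252 to 270.5 CPM and 304 to 308 CPM in the same groups. Markers of Cajal-Retzius and serotonergic cells summed to 89.8 to 102.7 CPM in 3xTg vehicle libraries and 63.6 to 73.8 CPM in WT vehicle libraries. Of the 10 hippocampal neuron markers, 8 had a log2 fold change below 0 in 3xTg vehicle against WT vehicle (median -0.51). At an unadjusted p under 0.05 in edgeR's test 4 were lower, against 7.08% of all genes. Choroid plexus markers were all below 0 there (12 of 12, median -2.44, 5 lower at that p). Above 0 were 7 of 8 neocortex markers (median 0.54, 3 higher at that p, against 7.00% of all genes). So were 8 of 11 striatum and thalamus markers (median 1.39, 4 higher and 1 lower at that p). Their sum was above the WT vehicle libraries only in 3xTg vehicle replicate 2. In replicates 1 and 3 it was 186 and 203 CPM, below the 256 to 382 CPM of WT vehicle libraries. In LP-10d against WT vehicle the sums of hippocampal neuron, striatum and thalamus, and Cajal-Retzius and serotonergic markers did not overlap. In none of the 12 lists was a marker at 0 in every library, and in none did a tested marker pass in any comparison. WT vehicle replicate 3 and 3xTg vehicle replicate 2, which an earlier analysis of these data set apart, were left out together as an alternative.

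The first comparison asked what differed in 3xTg mice from WT mice, both on vehicle. No clustered protocadherin gene passed an adjusted p of 0.05 when edgeR's quasi-likelihood test was adjusted by Benjamini-Hochberg, 0 of 53, and over all 17396 genes tested 1 gene passed (0.00575%). That gene was Plxnd1, a semaphorin receptor named here after its values were seen because it was the only one (log2 fold change 1.22, adjusted p = 0.0199). DESeq2 called 0 of the 52 to which it gave an adjusted p, and 352 of all genes (2.24%), while limma-voom called 0 of the 53 and 1 of all genes (0.00575%). At an unadjusted p under 0.05 there were 8 of 53, against 14.1% of all genes, so the share was close to the background. Of these 8, 2 were higher (7.00% of all genes were) and 6 lower (7.08% of all genes were) in 3xTg vehicle libraries, and all 6 of the lower ones were gamma genes.

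The clusters leaned to different sides in this comparison. Of 20 gamma genes, 17 had a log2 fold change below 0, with a median of -0.25, against 49.8% of all genes below 0 and a median of 0.00 over all genes. Of 12 tested alpha genes, 11 had a log2 fold change above 0, with a median of 0.13. The 21 tested beta genes divided into 10 above and 11 below 0, with a median of -0.01. In this and the other comparisons the genes share the same libraries and are not independent observations. Gamma genes in particular varied together, with a median correlation of 0.567 between adjacent genes over the 9 libraries. Without the 2 libraries set apart, 14 of 20 gamma genes were below 0 (median -0.24) and 7 of 12 alpha genes were above 0 (median 0.07). Leaving out 1 library at a time left 15 to 19 gamma genes below 0 and 8 to 11 alpha genes above 0. The medians moved more, since leaving out the WT library of replicate 3 gave a gamma median of -0.16 and leaving out that of replicate 2 gave -0.38. The alpha median became 0.04 when WT replicate 3 was left out, 0.31 when WT replicate 1 was, and 0.21 when 3xTg vehicle replicate 3 was. The oligodendrocyte, precursor and Cajal-Retzius and serotonergic marker sums separate the same groups. Hippocampal neuron and choroid plexus markers leaned lower in 3xTg vehicle libraries, and neocortex markers higher. Striatum and thalamus markers summed above the WT libraries only in 3xTg vehicle replicate 2, and below them in replicates 1 and 3. The part of all these markers in the leanings of the clusters was not tested.

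The summed level of each cluster was also read library by library. The gamma genes summed to 308, 322 and 321 CPM in the LP-10d libraries, 315, 342 and 302 CPM in the 3xTg vehicle libraries and 384, 299.9 and 402 CPM in the WT vehicle libraries. WT replicates 1 and 3 lay above all other libraries and WT replicate 2 below them, so the groups overlapped. The means were 317 ± 7.59, 319.8 ± 20.4 and 362 ± 54.3 CPM in the same order (SD, n = 3 each). The 3 WT libraries stood in the same order for the general neuron markers, at 6612, 5179 and 6835 CPM for replicates 1, 2 and 3, and the part of these markers in the gamma sums was not tested. For the alpha genes the sums were 76.6, 76.5 and 79.2 CPM in the LP-10d libraries, 80.9, 78.6 and 72.4 CPM in the 3xTg vehicle libraries and 83.8, 62.7 and 61.1 CPM in the WT vehicle libraries. Here WT replicate 1 was the highest of all 9 libraries and WT replicates 2 and 3 the lowest. Beta genes summed to 142, 140.0 and 163 CPM in the LP-10d libraries, 154, 149.5 and 159.5 CPM in the 3xTg vehicle libraries and 155, 145 and 162 CPM in the WT vehicle libraries, and the groups overlapped.

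**Figure D3:**
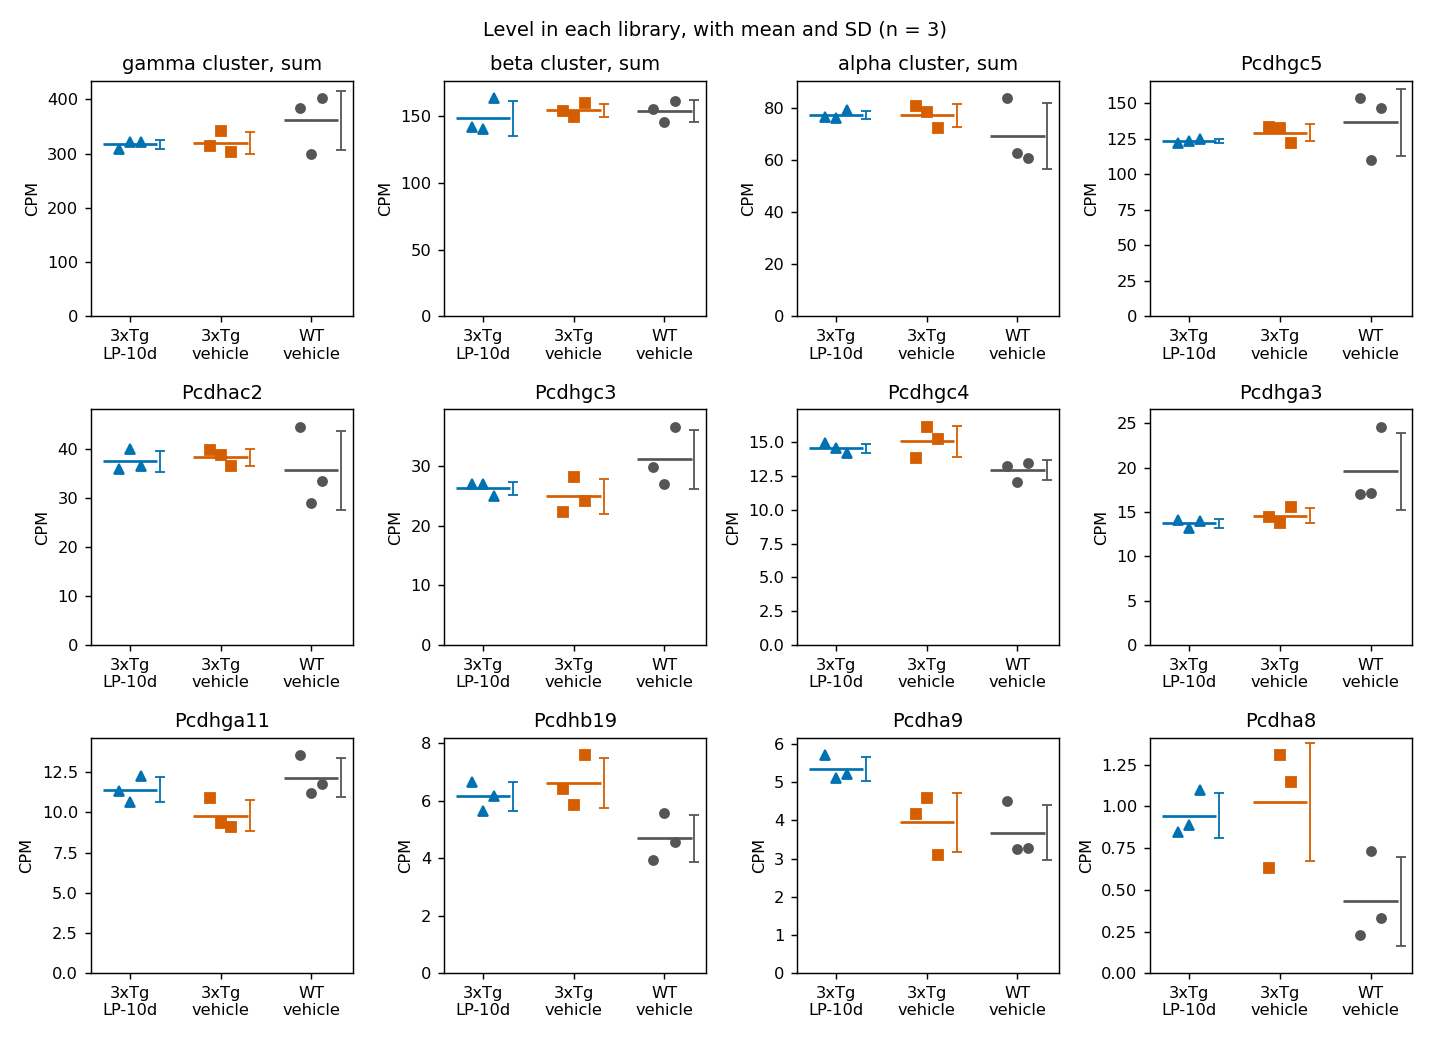
Summed CPM of each cluster and CPM of 9 genes in each of the 9 libraries, with bars for the mean and the SD (n = 3) and axes starting at 0. WT libraries spread widely in the gamma sum, from 299.9 to 402 CPM, while Pcdhga3 and Pcdhga11 in 3xTg vehicle libraries lie below all WT libraries and Pcdhb19 and Pcdhgc4 lie above them.

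In 8 of the 53 genes the 3xTg vehicle and WT vehicle libraries did not overlap, against 17.4% of all genes. Of these, 5 were higher and 3 lower in 3xTg vehicle libraries, against 9.38% and 7.99% of all genes. The 3 lower ones were gamma A genes. Pcdhga3 (ENSMUSG00000104346, bases 37674307 to 37841873) stood at 14.1, 13.2 and 13.9 CPM in the LP-10d libraries, 14.5, 13.8 and 15.5 CPM in the 3xTg vehicle libraries and 17.0, 17.1 and 24.6 CPM in the WT vehicle libraries. All 6 3xTg libraries lay below the WT libraries, of which replicate 3 was well above the rest. For 3xTg vehicle against WT vehicle its log2 fold change was -0.42 ± 0.15 (SE; 95% confidence interval -0.75 to -0.10; adjusted p = 0.274), and -0.19 without the 2 libraries set apart.

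Pcdhga11 (ENSMUSG00000102742, bases 37755731 to 37841873), which antisense genes leave with 1256 free bases, had 11.3, 10.7 and 12.2 CPM in the LP-10d libraries, 10.9, 9.37 and 9.09 CPM in the 3xTg vehicle libraries and 13.5, 11.2 and 11.7 CPM in the WT vehicle libraries. The 3xTg vehicle libraries lay below all WT libraries, and the LP-10d libraries overlapped with both other groups. Its log2 fold change for 3xTg vehicle against WT vehicle was -0.31 ± 0.13 (SE, adjusted p = 0.316). Pcdhga9, the third, had 9.37, 9.31 and 7.57 CPM in the LP-10d libraries, 10.00, 9.54 and 7.84 CPM in the 3xTg vehicle libraries and 12.4, 10.2 and 11.8 CPM in the WT vehicle libraries, with a log2 fold change of -0.33 ± 0.14 (SE, adjusted p = 0.346). Without the 2 libraries set apart the log2 fold change was -0.31 for Pcdhga11 and -0.34 for Pcdhga9. The gap between the groups of Pcdhga9 was small, as the highest 3xTg vehicle library was at 10.0 CPM and the lowest WT library at 10.2 CPM.

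The C-type genes of the gamma cluster had fold changes of both signs. Pcdhgc3 (ENSMUSG00000102918, bases 37806364 to 37841873) had 27.0, 27.0 and 25.1 CPM in the LP-10d libraries, 22.4, 28.2 and 24.2 CPM in the 3xTg vehicle libraries and 29.9, 26.9 and 36.6 CPM in the WT vehicle libraries, and its log2 fold change for 3xTg vehicle against WT vehicle was -0.32 ± 0.13 (SE, adjusted p = 0.316). One 3xTg vehicle library overlapped with the WT range. Pcdhgc4 had 14.9, 14.5 and 14.2 CPM in the LP-10d libraries, 13.8, 16.1 and 15.2 CPM in the 3xTg vehicle libraries and 13.3, 12.1 and 13.5 CPM in the WT vehicle libraries, so that all 6 3xTg libraries lay above the 3 WT libraries, with a log2 fold change of 0.22 ± 0.10 (SE, adjusted p = 0.370). Pcdhgc5, whose protein has been found to bind GABA type A receptors, had 122, 123 and 125 CPM in the LP-10d libraries, 133, 133 and 123 CPM in the 3xTg vehicle libraries and 154, 109.9 and 147 CPM in the WT vehicle libraries. Its groups overlapped, and its log2 fold change of -0.08 ± 0.11 (SE) had a 95% confidence interval of -0.33 to 0.18. It had at least 2080 counts per library, and at its mean count counting error alone gives a coefficient of variation of 2.07%. Without the 2 libraries set apart the log2 fold change was -0.29 for Pcdhgc3, 0.19 for Pcdhgc4 and -0.05 for Pcdhgc5.

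In the alpha cluster the C-type genes were close between the groups. Pcdhac2 had 35.9, 39.9 and 36.6 CPM in the LP-10d libraries, 39.8, 38.8 and 36.4 CPM in the 3xTg vehicle libraries and 44.5, 28.9 and 33.5 CPM in the WT vehicle libraries, and the WT libraries spanned the whole range of the others. The log2 fold change of 3xTg vehicle against WT vehicle was 0.11 ± 0.14 for Pcdhac2 and 0.02 ± 0.21 for Pcdhac1 (SE), with 95% confidence intervals of -0.21 to 0.42 and -0.45 to 0.49. Pcdha8 had the largest fold change of the 53 genes, 1.20 ± 0.42 on the log2 scale (SE, adjusted p = 0.279), on few reads. It stood at 0.846, 0.889 and 1.10 CPM in the LP-10d libraries, 0.631, 1.31 and 1.14 CPM in the 3xTg vehicle libraries and 0.228, 0.734 and 0.334 CPM in the WT vehicle libraries, which is 4 to 23 counts per library, and the 3xTg vehicle and WT vehicle libraries overlapped. Without the 2 libraries set apart its log2 fold change was 0.83.

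The remaining genes that did not overlap were 3 beta genes and 1 alpha gene, all higher in 3xTg vehicle libraries. Pcdhb19 (ENSMUSG00000043313, bases 37496991 to 37504128) had 6.66, 5.63 and 6.15 CPM in the LP-10d libraries, 6.42, 5.85 and 7.57 CPM in the 3xTg vehicle libraries and 3.94, 5.55 and 4.56 CPM in the WT vehicle libraries. Every 3xTg library, treated or not, was above every WT library, and the smallest adjusted p of the comparison among the 53 genes was its 0.268, with a log2 fold change of 0.49 ± 0.17 (SE) and 0.55 without the 2 libraries set apart. Pcdhb16 averaged 5.19 ± 0.518 CPM in 3xTg vehicle libraries and 4.26 ± 0.350 CPM in WT vehicle libraries, and Pcdhb20 14.2 ± 0.500 and 12.2 ± 0.974 CPM (SD, n = 3 each). Pcdha3 averaged 4.48 ± 0.320 CPM in 3xTg vehicle libraries and 3.49 ± 0.612 CPM in WT vehicle libraries (SD, n = 3 each). Pcdhb16 is named for groups that did not overlap, which was noticed after its values were seen.

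Treated 3xTg mice were next set against 3xTg mice on vehicle. No clustered protocadherin gene passed the adjusted threshold in edgeR's quasi-likelihood test, 0 of 53, and 0 of all 17396 genes passed (0%). DESeq2 called 0 of the 53 and 1 of all genes (0.00575%), and limma-voom 0 of the 53 and 0 of all genes (0%). An unadjusted p under 0.05 was reached by 2 of 53, against 2.90% of all genes, with 1 higher and 1 lower (0.948% and 1.95% of all genes). In 2 of 53 the groups did not overlap, against 11.6% of all genes, again 1 higher and 1 lower (5.82% and 5.81% of all genes). Fold changes were small on both sides. The median log2 fold change was 0.07 over 12 alpha genes, -0.03 over 21 beta genes and 0.02 over 20 gamma genes, and all 53 lay between -0.46 and 0.43. Of the gamma genes 9 were below 0 and 11 above, against 50.1% of all genes below 0, and this division rested on single libraries, since 14 were below 0 without 3xTg vehicle replicate 3 and 6 without 3xTg vehicle replicate 2. Leaving out both that replicate 2 and WT vehicle replicate 3 gave 5.

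Pcdha9 (ENSMUSG00000103770, bases 36997880 to 37187657) and Pcdhb8 (ENSMUSG00000045876, bases 37355121 to 37358604) were the 2 genes whose groups did not overlap. Pcdha9 had 5.70, 5.10 and 5.21 CPM in the LP-10d libraries, 4.16, 4.60 and 3.10 CPM in the 3xTg vehicle libraries and 4.51, 3.25 and 3.28 CPM in the WT vehicle libraries. All LP-10d libraries were above all other libraries, and the log2 fold change against 3xTg vehicle was 0.43 ± 0.19 (SE, adjusted p = 0.9997). Pcdhb8 had 3.56, 3.62 and 2.96 CPM in the LP-10d libraries, 4.21, 4.48 and 4.14 CPM in the 3xTg vehicle libraries and 3.83, 4.24 and 4.12 CPM in the WT vehicle libraries, with all LP-10d libraries below all others and a log2 fold change of -0.34 ± 0.15 (SE, adjusted p = 0.9997). Without the 2 libraries set apart the log2 fold change was 0.56 for Pcdha9 and -0.30 for Pcdhb8, and the genes had 54 to 101 counts per library. Next in order of p were Pcdhb13 at -0.46 ± 0.22, Pcdhga11 at 0.22 ± 0.13 and Pcdhb12 at -0.42 ± 0.27 (log2 fold change and SE), all with overlapping groups. Of Pcdhb12, antisense exons leave 1107 of 3034 bases free.

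The abundant genes give bounds on a response to the compound. For Pcdhgc5 the LP-10d libraries averaged 124 ± 1.55 CPM and the 3xTg vehicle libraries 129 ± 6.02 CPM (SD, n = 3 each), and the 95% confidence interval of the log2 fold change was -0.32 to 0.19. For Pcdhac2 the interval was -0.34 to 0.28, for Pcdhgc4 -0.28 to 0.18, for Pcdhgc3 -0.21 to 0.37 and for Pcdhb9 -0.27 to 0.20. These intervals are per gene and not adjusted for the number of genes.

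**Figure D4:**
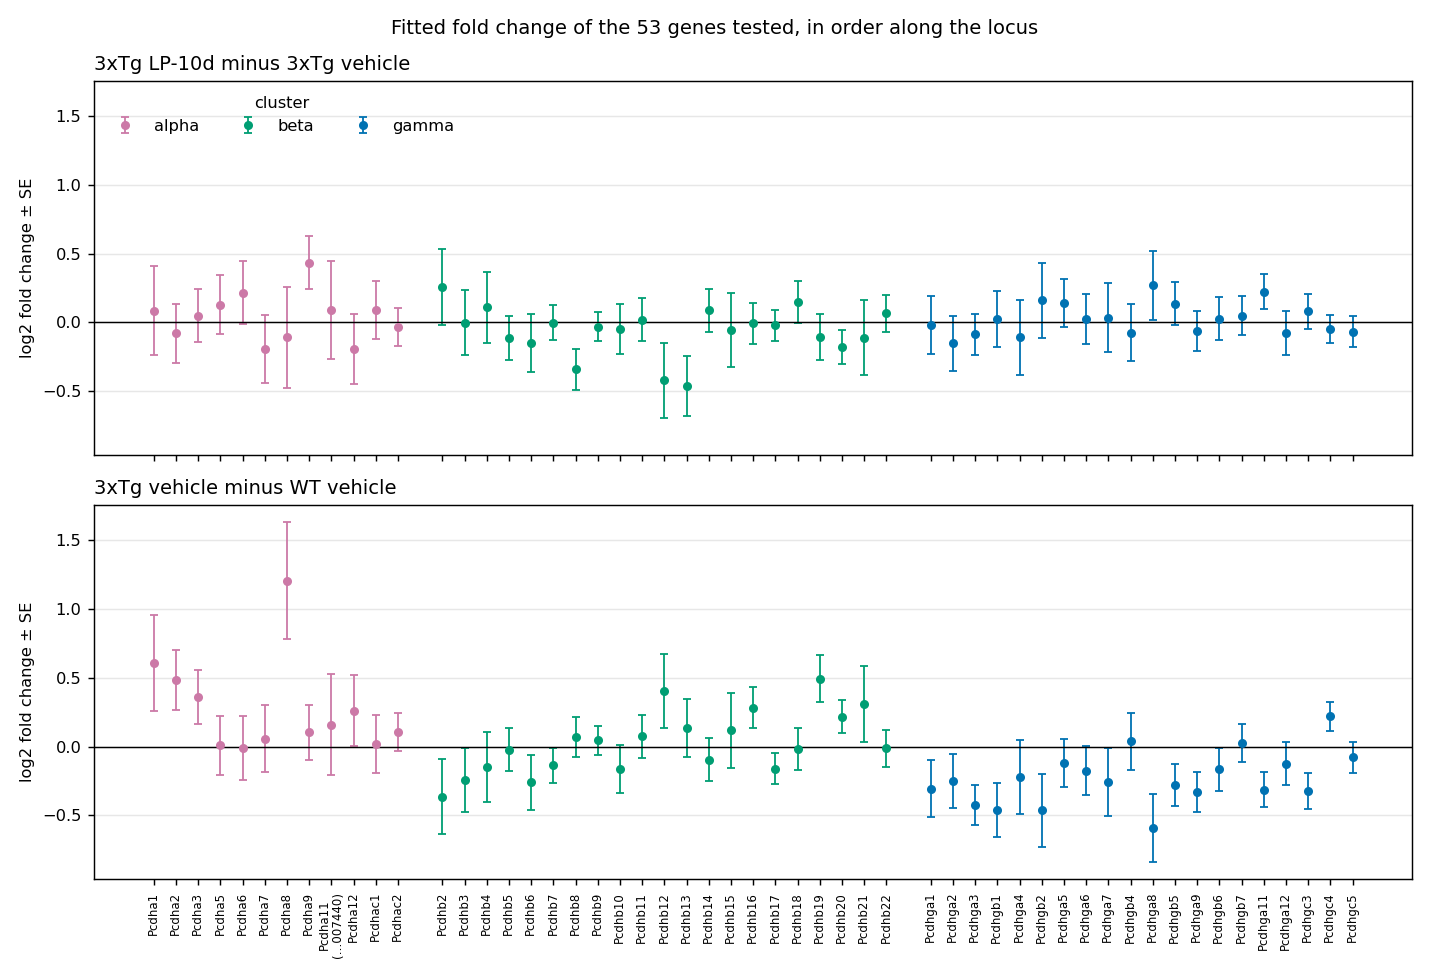
Log2 fold change with its standard error for the 53 tested genes in order along the locus, LP-10d against 3xTg vehicle above and 3xTg vehicle against WT vehicle below, coloured by cluster. The upper panel has both signs in every cluster, while in the lower panel 17 of 20 gamma genes lie below 0 and 11 of 12 alpha genes above it. Both panels use the same 3xTg vehicle libraries.

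LP-10d-treated 3xTg libraries were also compared with WT vehicle libraries, which shares samples with both comparisons above. In edgeR's quasi-likelihood test 0 of 53 genes passed, with 0 of 17396 overall (0%). DESeq2 called 0 of the 53 and 46 of all genes (0.265%), and limma-voom 0 of the 53 and 0 of all genes (0%). At an unadjusted p under 0.05 there were 5 of 53, against 8.75% of all genes, with 3 higher and 2 lower (4.08% and 4.67% of all genes). In 10 of 53 the groups did not overlap, against 14.4% of all genes, with 5 higher and 5 lower (7.49% and 6.89% of all genes). The smallest adjusted p was that of Pcdhga3, 0.527, with a log2 fold change of -0.51 ± 0.15 (SE) and -0.31 without the 2 libraries set apart. Pcdha9 followed at 0.54 ± 0.19, Pcdhga9 at -0.39 ± 0.14, Pcdha8 at 1.10 ± 0.43 and Pcdhb19 at 0.39 ± 0.17 (log2 fold change and SE). Of the gamma genes 17 of 20 were below 0 (median -0.21), against 50.5% of all genes, and of the alpha genes 11 of 12 above 0 (median 0.23), as were 14 of 20 and 9 of 12 without the 2 libraries. The gamma median became -0.09 when WT replicate 1 was left out, -0.31 when WT replicate 2 was and -0.11 when WT replicate 3 was. The part of the marker sums that separate these groups was not tested.

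Within the gamma cluster the libraries differed both across the cluster and by stretches of neighbouring genes. Over the 9 libraries the log2 CPM of adjacent gamma genes had a median correlation of 0.567. For gamma genes 5 or more places apart it was 0.425, with 97 of 120 pairs above 0. The first 7 gamma genes along the chromosome, Pcdhga1, Pcdhga2, Pcdhga3, Pcdhgb1, Pcdhga4, Pcdhgb2 and Pcdhga5, all had their highest value in WT vehicle replicate 3. Pcdhga4 stood at 13.2 CPM there and at 6.04 to 9.31 CPM in the other 8 libraries. Pcdhgb2 stood at 11.8 CPM there and at 4.63 to 7.94 CPM elsewhere. The run begins at the end of the gamma cluster nearest to the beta genes. Pcdhga7, Pcdhga12 and Pcdhgc3, which lie outside it, were also highest in this library.

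Over the whole gamma cluster, WT vehicle libraries held the highest value for 16 of 20 genes, 10 in replicate 3 and 6 in replicate 1, and 3xTg vehicle replicate 2 for the other 4. WT vehicle replicate 2 held the highest value for 0 gamma genes and the lowest for 4. Pcdhga8 shows the second stretch, with 7.00, 7.23 and 9.88 CPM in the LP-10d libraries, 6.37, 8.06 and 5.61 CPM in the 3xTg vehicle libraries and 13.6, 7.07 and 9.57 CPM in the WT vehicle libraries. WT replicate 1 was highest for it and for Pcdhgb5, its neighbour, at 7.14 CPM against 4.74 to 6.37 CPM elsewhere. This pattern along the chromosome was noticed after the values were seen and is given without a test.

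**Figure D5:**
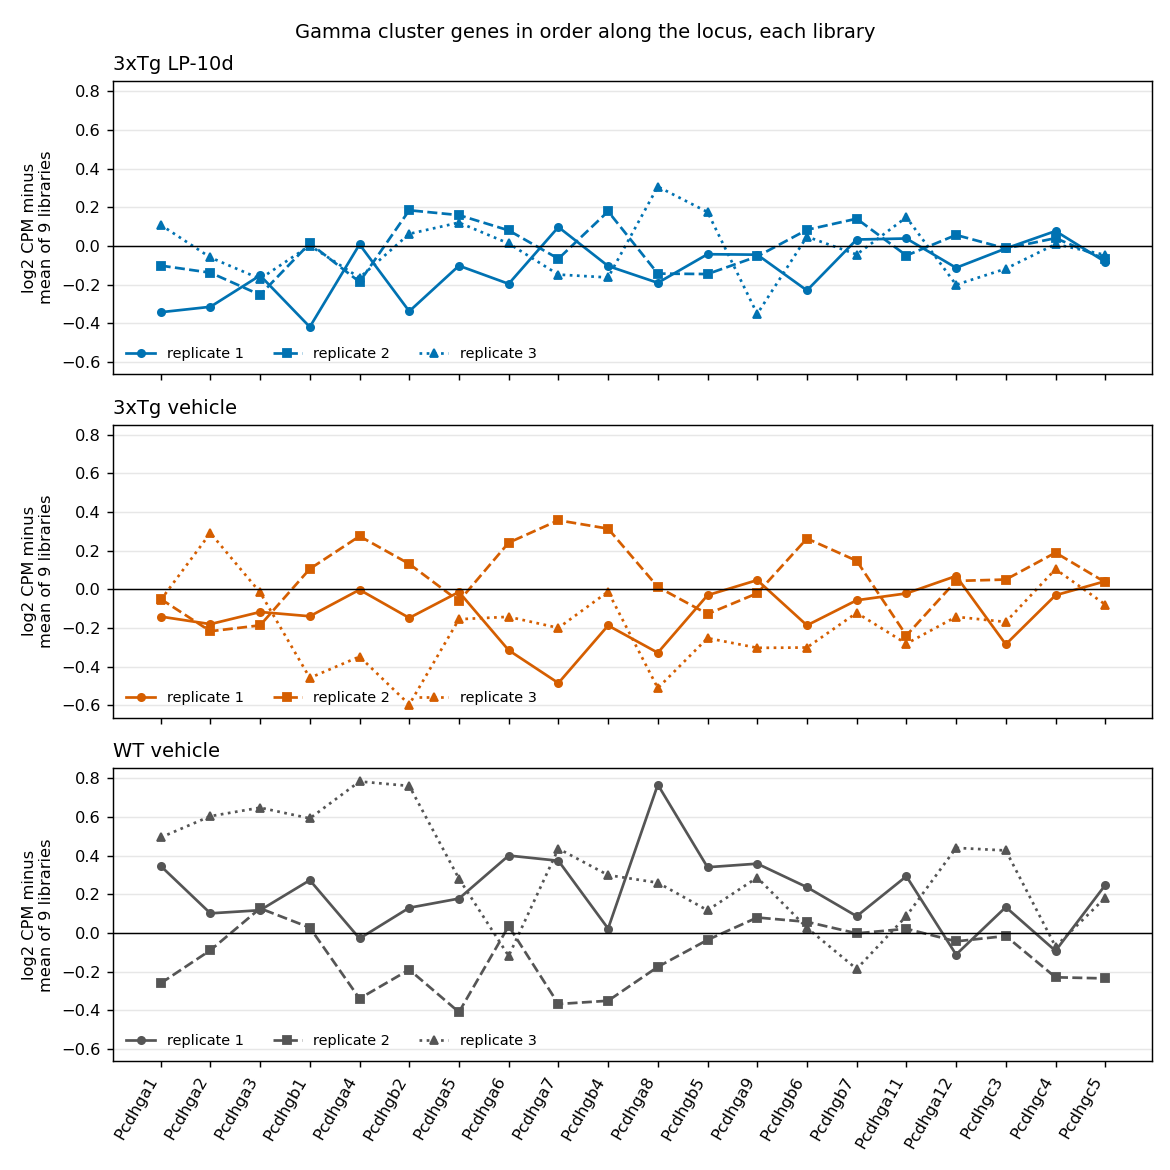
Log2 CPM of each gamma gene minus its mean over the 9 libraries, in order along the locus, with a panel for each group and a line for each library. WT vehicle replicate 3 lies above the mean from Pcdhga1 to Pcdhga5, and WT vehicle replicate 1 peaks at Pcdhga8.

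The other genes of the pathway were described from lists, none of which had a member past the adjusted threshold in edgeR's quasi-likelihood test in any comparison. The 12 non-clustered protocadherins, single genes outside these clusters that mediate weaker adhesion, were all tested. In 3xTg vehicle against WT vehicle 3 of the 12 were higher and 3 lower at an unadjusted p under 0.05, against 7.00% and 7.08% of all genes, with a median log2 fold change of 0.06 over the list. Pcdh20 averaged 58.0 ± 8.06 CPM in 3xTg vehicle libraries and 89.8 ± 12.7 CPM in WT vehicle libraries (log2 fold change -0.63, adjusted p = 0.104). Pcdh7 averaged 47.9 ± 8.53 and 31.2 ± 3.00 CPM in the same groups (0.62, adjusted p = 0.122, SD, n = 3 each). With LP-10d, Pcdh20 averaged 76.2 ± 5.66 CPM, a log2 fold change of 0.40 against 3xTg vehicle (adjusted p = 0.9997).

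Of 24 regulators of promoter choice, such as CTCF, cohesin subunits and DNA methylation enzymes, 24 were tested. In 3xTg vehicle against WT vehicle 9 had a log2 fold change above 0 and 15 below, with a median of -0.02. Dnmt3a, a methyltransferase that sets new DNA methylation, averaged 140.2 ± 15.4 CPM in 3xTg vehicle libraries and 109 ± 22.2 CPM in WT vehicle libraries (0.37, adjusted p = 0.300). Rest, a repressor of neuronal genes, averaged 6.01 ± 0.679 and 7.82 ± 0.547 CPM in the same groups (-0.38, adjusted p = 0.307). With LP-10d the list's median was 0.01 against 3xTg vehicle.

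The 9 genes for cleavage of protocadherins include the sheddase Adam10 and the subunits of gamma-secretase, which releases the cytoplasmic end. In 3xTg vehicle against WT vehicle 7 of 9 were below 0 (median -0.06), against 49.8% of all genes. Aph1c, a subunit of gamma-secretase in rodents, averaged 8.67 ± 0.474 CPM in 3xTg vehicle libraries and 10.8 ± 1.20 CPM in WT vehicle libraries (log2 fold change -0.32, adjusted p = 0.362, SD, n = 3 each). With LP-10d 8 of 9 were above 0 relative to 3xTg vehicle (median 0.09), while 50.1% of all genes were below 0. The smallest adjusted p of the list there was 0.9997 in edgeR's test. Both comparisons use the same 3xTg vehicle libraries, so opposite signs in them are not independent.

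Among 22 intracellular and membrane partners, such as the kinase Ptk2b (Pyk2) and the WAVE complex that builds actin networks, 19 had a log2 fold change below 0 in 3xTg vehicle against WT vehicle, with a median of -0.12, against 49.8% of all genes. Hippocampal neuron and oligodendrocyte markers also leaned lower there, and their part was not tested. Ptk2b averaged 948 ± 129 CPM in 3xTg vehicle libraries and 1286 ± 210.2 CPM in WT vehicle libraries (-0.44, adjusted p = 0.236). Wasf1, the WAVE protein of neurons, averaged 307 ± 35.2 and 456 ± 153 CPM in the same groups (-0.57, adjusted p = 0.278). Against 3xTg vehicle, the LP-10d libraries had 11 partners above and 11 below 0 (median 0.01).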

How the data were processed

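Total hippocampal RNA was sequenced in 9 libraries, and the authors deposited raw gene counts for 55471 genes. The authors also deposited FPKM values for the 33175 genes with a count in any library, with names, biotypes and positions. FPKM equalled the count divided by exon length and total count in every library (largest relative deviation 2.45e-14). Per the submitters' processing notes reads were placed on mm10; which aligner, counter or strand option was used is not given in the sources used here. Total counts were 16582086 to 19170969 per library.

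Exon overlaps were computed from GENCODE M21. Counts were fitted with edgeR 4.0.16 in R 4.3.3 over all 9 libraries (filterByExpr, 17396 genes, TMM scaling, group means, quasi-likelihood test, Benjamini-Hochberg adjustment over all genes, threshold 0.05). The common biological coefficient of variation was 0.157. CPM uses TMM-scaled library sizes. Alternatives were RLE scaling, DESeq2 1.42.0, limma 3.58.1 (voom, or trend on log2 FPKM plus 0.1 or 1), other filters, the legacy test, fewer libraries and a replicate block. The method was tested on simulated data.

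The deviations of same-numbered LP-10d and 3xTg vehicle libraries over all genes had correlations of 0.173, 0.104 and 0.375. Each was over 0.1, so a block by these numbers was fitted, on a weak sign from the data and not from the labels. No LP-10d library correlated most with its same-numbered 3xTg vehicle library. LP-10d replicate 1 correlated more with WT vehicle replicate 2 (0.192). LP-10d replicate 2 did so with 3xTg vehicle replicate 1 (0.180), and LP-10d replicate 3 with WT vehicle replicate 1 (0.386). In the other comparisons same-numbered correlations ran from -0.178 to 0.160. The 0.160, of LP-10d and WT vehicle replicate 2, was above the 0.104 of LP-10d and 3xTg vehicle replicate 2. Whether the numbers pair libraries cannot be told. No 2 libraries of a group agreed within sampling noise (chi-square over degrees of freedom at least 4.99).

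The genes, lists, alternatives and naming rule were chosen with earlier results of these data known. Named were all C-type genes, the 4 highest other genes of each cluster by mean CPM, the 5 genes with the smallest p per comparison, the lowest genes and up to 4 genes per list. No gene sequence is shown. Some label details and results are not reported here.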

Additional observations from a re-analysis of the deposited data

How the results depend on the processing

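No clustered protocadherin gene passed an adjusted p of 0.05 in any comparison under the other settings tried, 20 for each comparison and, for LP-10d against 3xTg vehicle, 1 more chosen after seeing the data. The stricter filter dropped Pcdha1, Pcdha6, Pcdha8 and Pcdhb21. The smallest adjusted p of a member over these fits was 0.123 for 3xTg vehicle against WT vehicle, 0.583 for LP-10d against 3xTg vehicle and 0.250 for LP-10d against WT vehicle. The median log2 fold change over all tested members moved by less than 0.129, the SD between replicates of their median log2 CPM, although cluster medians moved further. The sign of the fold change held in every fit for 27, 20 and 33 of 53 genes in these comparisons.

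Counts over all genes moved more, and the cause was not tested. For 3xTg vehicle against WT vehicle, 1 gene was called, but 352 with DESeq2, 3 without a filter, 3 and 2 with FPKM at pseudocounts 0.1 and 1, and 0 to 11 on leaving out 1 library (0 without WT vehicle replicate 1, either of 3xTg vehicle replicates 2 and 3, or LP-10d replicate 1, and 11 without WT vehicle replicate 2). In the fit of only the 6 libraries compared, the gene called for 3xTg vehicle against WT vehicle was Gm8210 in place of Plxnd1. Without WT vehicle replicate 3, or without both libraries set apart, it was Necab1. For LP-10d against 3xTg vehicle, 0 were called, but 1 with DESeq2 (Plxnd1). For LP-10d against WT vehicle, 0 were called, but 46 with DESeq2 and 0 to 2 on leaving out 1 library (2 without LP-10d replicate 2). The gamma genes below 0 for LP-10d against 3xTg vehicle, 9 of 20, became 6 to 14 on leaving out 1 library and 5 without both libraries set apart.

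With the replicate block in the 6 libraries of LP-10d and 3xTg vehicle, whose pairing by number is uncertain, 1 gene was called (Egr1, log2 fold change -0.68, adjusted p = 0.0479). With the block in all 9 libraries 0 of all genes were called. In the other comparisons the block left 1 gene called for 3xTg vehicle against WT vehicle and 0 for LP-10d against WT vehicle. It changed no other call.

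Low depth limits the alpha cluster most: counting error alone gives a coefficient of variation of 26.3% for Pcdha8, against 2.07% for Pcdhgc5. With 3 libraries a group, an exact permutation test cannot go below p = 0.1.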

Other observations

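The neighbouring beta genes Pcdhb2, Pcdhb3 and Pcdhb4 had their highest value of each group in replicate 3. Pcdhb2 had 3.44, 3.32 and 5.38 CPM in the LP-10d libraries, 3.84, 2.21 and 4.08 CPM in the 3xTg vehicle libraries and 3.77, 3.98 and 5.34 CPM in the WT vehicle libraries. Pcdhb3 had 7.79, 7.23 and 11.7 CPM in the LP-10d libraries, 8.42, 7.15 and 11.2 CPM in the 3xTg vehicle libraries and 10.1, 8.75 and 13.0 CPM in the WT vehicle libraries. Pcdhb4 had 3.44, 3.02 and 4.67 CPM in the LP-10d libraries, 3.58, 2.61 and 4.14 CPM in the 3xTg vehicle libraries and 2.80, 3.88 and 4.78 CPM in the WT vehicle libraries. The lowest of the 9 libraries was 3xTg vehicle replicate 2 for all 3 genes, the library with the high striatum and thalamus markers, whose part in these values was not tested. That library was also lowest for Pcdhb5, Pcdhb7 and Pcdhb9, and so for 6 of the 21 tested beta genes. The pattern was noticed after the values were seen.

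Other genes inside the locus were counted for comparison. Pcdhgb8, a polymorphic pseudogene of the gamma B series, had 25 to 42 counts per library. The readthrough genes Gm42416, Gm37013 and Gm37388, whose exons are wholly shared, had 0 counts in all 9 libraries.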
